A study of Mus musculus with 4 samples.

Results

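The genes examined were Cd36, Fabp1, Fabp2, Mogat2, Dgat1, Dgat2, Mttp, Apob, Apoa1 and Apoa4, 10 of the 32227 genes counted, listed by name for their roles in milk fat uptake and chylomicron assembly. They were followed in single cells of the jejunum and the ileum of 2 wild-type (WT) mice at postnatal day 6 (P6), an age at which pups live on milk. A segment of each region came from the same mouse, and its epithelium was released with EDTA and dissociated with dispase, so that each region had 2 libraries. Replicate 1 carries the labels male and batch 1, and replicate 2 the labels female and batch 2. Mouse, sex label and batch therefore cannot be told apart, and no agent or mutation was given to any group. Each p-value below sets a regional difference against a spread estimated from 2 libraries a region, with information shared between genes. The main fit leaves out the pairing of regions by mouse, which the replicate block adds.

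Milk triglyceride is cleaved in the lumen to fatty acids and monoacylglycerol, which enter the enterocyte across its brush border. CD36 is a membrane protein that binds fatty acids and helps them enter, and the fatty acid binding proteins encoded by Fabp1 and Fabp2 hold them in solution in the cytosol. In the endoplasmic reticulum the monoacylglycerol acyltransferase encoded by Mogat2 and the diacylglycerol acyltransferases encoded by Dgat1 and Dgat2 rebuild triglyceride. The microsomal triglyceride transfer protein, whose large subunit is encoded by Mttp, loads that triglyceride onto apolipoprotein B, the structural protein of the chylomicron. Apolipoproteins A-I and A-IV (Apoa1 and Apoa4) coat the particle, which leaves in transport vesicles for the Golgi and then the lymph.

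Promoter sequence for 7 of the 10 genes was matched in RefSeq (assembly GRCm38.p6), as the 250 bases before a gene's start. The windows of Cd36 and Fabp1, the genes with the largest fitted regional differences, and of Apoa1 and Apoa4, the pair that varied most closely together from cell to cell, are shown 5′ to 3′ on the gene's own strand. Cd36 lies at chr5:17835897-17836146 (minus strand), Fabp1 at chr6:71199629-71199878 (plus), Apoa1 at chr9:46228380-46228629 (plus) and Apoa4 at chr9:46240594-46240843 (plus). Capitals mark motif matches. The motifs searched, on both strands, were a direct repeat of AGGNCA with 1 base between the copies, the HNF4-type letters CAAAGTCCA, the TATA box TATAAA and the HNF1-type letters GTTAAT.
Cd36: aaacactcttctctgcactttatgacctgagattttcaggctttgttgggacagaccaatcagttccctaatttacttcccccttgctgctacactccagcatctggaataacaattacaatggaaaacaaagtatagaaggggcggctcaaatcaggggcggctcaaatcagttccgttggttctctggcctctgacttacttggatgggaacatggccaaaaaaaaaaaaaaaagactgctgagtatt
Fabp1: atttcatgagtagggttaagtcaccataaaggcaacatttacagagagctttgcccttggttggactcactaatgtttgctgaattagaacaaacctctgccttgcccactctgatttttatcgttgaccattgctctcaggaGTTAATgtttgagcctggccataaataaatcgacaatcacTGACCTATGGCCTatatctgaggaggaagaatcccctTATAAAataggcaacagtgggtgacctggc
Apoa1: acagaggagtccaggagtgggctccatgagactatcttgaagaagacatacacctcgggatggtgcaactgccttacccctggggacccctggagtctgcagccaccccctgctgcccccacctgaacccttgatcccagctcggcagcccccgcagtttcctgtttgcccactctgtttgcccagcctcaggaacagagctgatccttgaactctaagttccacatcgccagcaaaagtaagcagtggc
Apoa4: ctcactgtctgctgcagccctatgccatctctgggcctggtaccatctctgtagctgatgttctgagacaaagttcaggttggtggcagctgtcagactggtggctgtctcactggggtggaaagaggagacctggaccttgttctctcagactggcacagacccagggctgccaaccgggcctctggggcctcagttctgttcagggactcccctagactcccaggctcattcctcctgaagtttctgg
The Fabp1 window held the direct repeat 67 bases before the start, on the opposite strand, which 0.338% of 32851 promoter windows of the same length also hold. It further held TATAAA 30 bases before the start (12.4% of windows) and GTTAAT 107 bases before it (6.43%). Apob, whose window is not shown, was the other gene with TATAAA, 60 bases before its start, and CAAAGTCCA was in 0 of the 7 windows (0.384% of all windows). The letters are a description and not a sign of binding. In the order of RefSeq genes, Apoa1 and Apoa4 are separated by Apoc3 alone, and Dgat2 and Mogat2 are next to each other.

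The libraries kept 7300 and 8502 ileal and 8997 and 5722 jejunal cells (replicates 1 and 2). Depth and mitochondrial share differed with region. The median was 12048 and 10916 UMIs (unique molecular identifiers, each standing for 1 counted molecule) per cell in the ileum against 4690 and 5884 in the jejunum, with a median mitochondrial share of 3.61 and 3.74% against 6.37 and 9.94%. Their part in the regional differences was not tested, although levels are given as CPM (UMIs of a gene scaled to a library total of 1000000) or in cells thinned to an equal depth. The libraries labelled male held Xist at 575 (ileum) and 466 CPM (jejunum) and those labelled female at 0.706 and 0.907 CPM, so all 4 libraries go against their sex labels, and no result here rests on sex. Any pair of libraries shared at most 1 cell barcode. The cells called enterocyte-like, from markers that include none of the 10 genes, numbered 6184, 6865, 7842 and 4953 (ileum 1, ileum 2, jejunum 1 and jejunum 2, the order used throughout). Summed enterocyte markers stood at 8297, 9554, 9925 and 9559 CPM in them. Summed immune markers were 6.33, 5.17, 22.7 and 28.6 CPM and summed goblet markers 196, 159, 77.9 and 69.8 CPM, with 8 of 11 immune markers under 1 CPM in every library, and the part of these cells in the results was not tested.

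Jejunal enterocyte-like cells gave more of their RNA to these genes than ileal ones did. The 10 genes together made up 1.69, 2.04, 4.76 and 4.87% of all UMIs, 1.86 ± 0.252% (SD, n = 2) in the ileum and 4.82 ± 0.0776% in the jejunum. Both jejunal libraries lay above both ileal ones for 9 of the 10, Dgat1 being the exception, where 24.5% of 19541 genes did so. The question was which of them differed by more than the spread between the mice, tested with edgeR's quasi-likelihood test on UMIs summed per library and Benjamini-Hochberg adjustment over all 19558 genes tested (called at an adjusted p under 0.05). Cd36, Fabp2, Dgat2, Mttp, Apoa1 and Apoa4, 6 of 10, were lower in the ileum, a direction in which 3.18% of all genes were called. The median log2 fold change of ileum over jejunum was -1.43 over the 10 genes and -0.01 over all genes. With the mouse as a replicate block, Fabp1 and Mogat2 were called as well, 8 of 10, against 6.97% of all genes. Leaving out ileum 1, ileum 2 or jejunum 2 lowered the number of calls, both of the 10 and over all genes. Without ileum 1, ileum 2, jejunum 1 and jejunum 2 in turn, the median change of the 10 was -1.22, -1.52, -1.52 and -1.16. The fitted change of all 10 stayed negative each time.

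**Figure D1:**
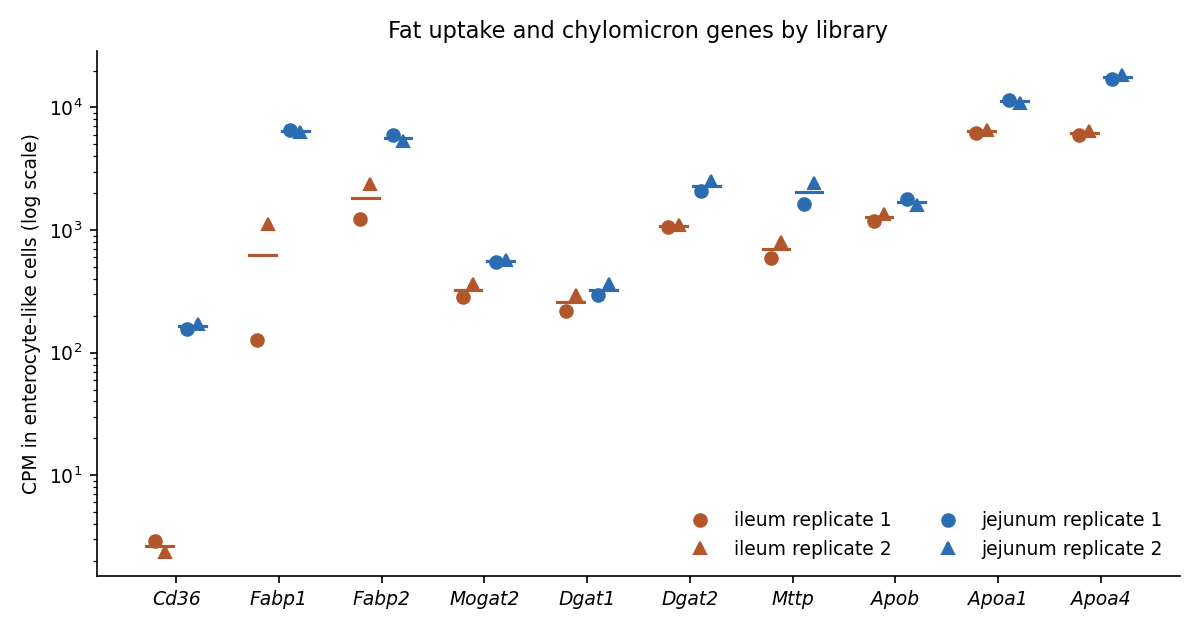
Level of each gene in enterocyte-like cells, in CPM on a log axis, with 1 point for each of the 4 libraries and a bar at the mean of a region. Ileal and jejunal points are apart for every gene but Dgat1, and the ileal Fabp1 points, 127 and 1127 CPM, are the farthest apart within a region.

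Cd36, at the entry step, differed most. Its level was 2.92 and 2.37 CPM in the ileum against 156 and 171 CPM in the jejunum, 2.65 ± 0.388 against 164 ± 10.6 CPM (SD, n = 2). The mice were alike within each region and the regions were far apart. The log2 fold change of ileum over jejunum was -6.07 ± 0.19 (SE), or 67.2-fold, with an adjusted p of 0.00208 in edgeR's test. It alone of the 10 was called under every alternative and without any 1 library, where the adjusted p reached at most 0.0355. After each cell was thinned to 2000 UMIs, 0.896% (95% exact binomial interval 0.676 to 1.17) and 0.501% (0.345 to 0.703) of ileal enterocyte-like cells and 27.5% (26.5 to 28.6) and 27.5% (26.3 to 28.8) of jejunal ones had a Cd36 UMI. These intervals cover counting error only. Ileal stem/progenitor-like cells had a share of 0.864% (0.236 to 2.20) and 0.866% (0.236 to 2.20), so at this depth ileal enterocyte-like cells could not be told from them. Unthinned, the 228 and 199 ileal UMIs came from 193 and 180 cells, with at most 7 in a cell, whereas jejunal cells held up to 16. They were spread unequally. The cluster led by Sprr2a2 and Serpinb6b held a Cd36 UMI in 8.76 and 2.48% of its ileal cells. Over all kept ileal cells the shares were 3.055 and 2.564%. That cluster held 23.5 and 7.32% of all Cd36 UMIs of the ileal libraries. The cluster led by 3300005D01Rik and Enpp3 held a Cd36 UMI in 8.08 and 6.47% of its ileal cells, and 17.7 and 13.4% of those UMIs. Whether free RNA had a part in the ileal UMIs was not tested.

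Both cytosolic fatty acid binding proteins were low in the ileum, and Fabp1 unequally so between the mice. Fabp1, also the main such protein of the liver, stood at 127 and 1127 CPM in the ileum against 6543 and 6293 CPM in the jejunum. Replicate 2 was thus 8.87-fold above replicate 1 in the ileum and 0.962-fold in the jejunum, the widest gap between the mice for any of the 10 genes. The change was -3.43 ± 0.98 with an adjusted p of 0.0908, which missed the threshold, and -4.20 ± 0.84 with an adjusted p of 0.03 with the replicate block. Without ileum 2 the change was -5.82 ± 0.20 (adjusted p 0.0247), and without ileum 1 it was -2.57 ± 0.15 (0.0511). At 2000 UMIs per cell, 10.6 and 49.5% of ileal enterocyte-like cells and 99.5 and 99.8% of jejunal ones held a Fabp1 UMI. Cells with 10 or more were 0.114 and 4.89% of ileal cells and 57.8 and 50.2% of jejunal ones, so the jejunal levels did not come from a small part of the cells. Fabp2, the intestinal form, measured 1231 and 2395 CPM in the ileum against 5984 and 5297 CPM in the jejunum, with a change of -1.74 ± 0.35 (adjusted p 0.0456). Fabp2 was detected in 81.5 and 92.6% of thinned ileal enterocyte-like cells and in 3 of 8 and 3 of 10 ileal immune-like cells, which should lack it. The ratio of Fabp1 to Fabp2 UMIs was 0.103, 0.471, 1.09 and 1.19 in the 4 libraries, a ratio of 3′ tags that is not corrected for gene length.

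The enzymes that rebuild triglyceride were not all alike. Dgat2 had 1051 and 1093 CPM in the ileum against 2079 and 2528 CPM in the jejunum, a change of -1.22 ± 0.18 (adjusted p 0.0251). Mogat2, which makes the diacylglycerol that both Dgat enzymes use, had 284 and 366 against 549 and 575 CPM. Its change of -0.90 ± 0.19 just missed the threshold (adjusted p 0.0503) and passed it with the replicate block (0.013). Dgat1 had 218 and 296 CPM in the ileum against 293 and 360 CPM in the jejunum. Its regions overlapped, as those of no other gene of the 10 did, and its change of -0.46 ± 0.23 was not called (adjusted p 0.245, or 0.051 with the block). Dgat2 UMIs outnumbered Dgat1 UMIs 4.82- and 3.70-fold in the ileum against 7.10- and 7.02-fold in the jejunum, the regions not overlapping.

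Of the genes that build the particle, Mttp, Apoa4 and Apoa1 were lower in the ileum and Apob was not called. Mttp measured 592 and 801 CPM in the ileum against 1647 and 2426 CPM in the jejunum, a change of -1.66 ± 0.28 (adjusted p 0.0321). Replicate 2 was above replicate 1 in both regions, 1.35- and 1.47-fold. Apob, the cargo that Mttp loads, had 1186 and 1364 against 1777 and 1615 CPM. Its libraries did not overlap by region, but its change of -0.52 ± 0.16 was not called (adjusted p 0.11, 0.0629 with the block, 0.027 by DESeq2). The ratio of Mttp to Apob UMIs was accordingly 0.499 and 0.587 in the ileum against 0.927 and 1.5 in the jejunum. Apoa4 measured 5955 and 6414 CPM in the ileum against 17010 and 18540 CPM in the jejunum, a change of -1.64 ± 0.18 (adjusted p 0.0167). Apoa1 measured 6215 and 6568 against 11610 and 10940 CPM, a change of -0.93 ± 0.16 (adjusted p 0.0333). The Apoa4 to Apoa1 ratio was 0.958 and 0.977 in the ileum against 1.47 and 1.70 in the jejunum. Within the UMIs of the 10 genes, Apoa1 took 36.9, 32.2, 24.4 and 22.4%, whereas Apoa4 took 35.3, 31.4, 35.7 and 38.0% and Fabp1 0.754, 5.52, 13.7 and 12.9%.

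**Figure D2:**
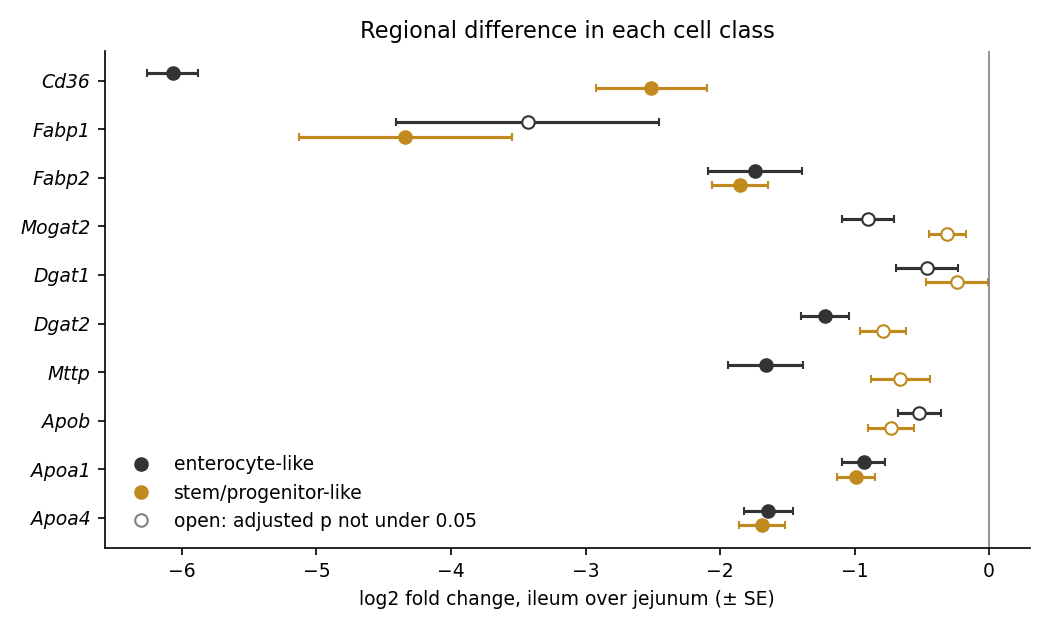
Fitted log2 fold change of ileum over jejunum for each gene, with its standard error, in enterocyte-like and stem/progenitor-like cells (edgeR, 2 libraries a region). Every value lies below 0, and that of Cd36 is -6.07 in the former class and -2.51 in the latter.

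Other genes of the pathway were taken from a list by role. Of 84 listed, 79 were tested, 14 were lower and 1 higher in the ileum, and 64 were not called, against 7.48% of all genes called in either direction. With the replicate block 28 were lower and 5 higher, against 15.7%. The list's median log2 fold change was -0.51, beside -0.01 for all genes, and 60 of 79 were negative (75.9%, against 50.8% of all genes). Leaving out ileum 1, ileum 2 or jejunum 2 lowered the number of calls on the list, as it did over all genes.

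For uptake, 1 of 9 was called, Slc27a2, a fatty acid transport protein, at 3.59 and 10.4 CPM in the ileum against 62.8 and 107 CPM in the jejunum (-3.71 ± 0.60, adjusted p 0.0284). For activation, 1 of 5 was called, Acsl5, an acyl-CoA synthetase, at 606 and 685 against 1025 and 1271 CPM (-0.95 ± 0.19, 0.0463). In triglyceride and ester synthesis, 3 of 12 were lower, among them the acyltransferase gene Agpat3 (-1.26 ± 0.21, 0.03) and Soat2, which esterifies cholesterol in enterocytes (-1.31 ± 0.23, 0.0359). Soat1, the more widely expressed cholesterol esterifying enzyme, was the only listed gene called higher in the ileum, at 198 and 185 against 88.6 and 104 CPM (0.87 ± 0.15, 0.0343). Soat1 and Soat2 thus moved in opposite directions.

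Among apolipoproteins and lipidation partners, 4 of 10 were lower. Apoc2, the cofactor of lipoprotein lipase, had 726 and 861 CPM in the ileum against 4955 and 6244 CPM in the jejunum (-2.93 ± 0.23, 0.0123), a larger change than that of Apoa1 or Apoa4. Apoc3, which lies between those genes, had 779 and 1045 against 2236 and 2684 CPM (-1.54 ± 0.23, 0.0253). Cideb, a protein of lipoprotein lipidation, also fell (-1.16 ± 0.22, 0.0404). P4hb, which encodes the partner subunit of the Mttp protein, was picked out after its values were seen, and had 1505 and 1808 against 3137 and 3370 CPM (-1.09 ± 0.19, 0.0318).

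In export from the endoplasmic reticulum 4 of 16 were lower. Sec24d, a cargo-binding coat protein of those vesicles, had 61.6 and 76.1 CPM in the ileum against 224 and 303 CPM in the jejunum (-2.05 ± 0.24, 0.017). The vesicle fusion genes Sec22b (-1.0 ± 0.20, 0.0436) and Bet1 (-0.92 ± 0.18, 0.0432) were lower too. Of 10 lipid droplet genes 1 was called, Cidec, a lipid droplet protein (-0.70 ± 0.14, 0.0454). Of 6 luminal lipases and cofactors and of 11 transcription factors of fat absorption 0 were called by edgeR in either direction (2 and 3 at an unadjusted p under 0.05), while 1 and 2 were lower with the replicate block and DESeq2 called 1 and 3.

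Stem/progenitor-like cells held far less of the 10 genes, and the same direction was seen between regions. The genes made up 0.255, 0.339, 0.676 and 0.841% of their UMIs, and 465, 505, 532 and 485 such cells were summed. Both jejunal libraries lay above both ileal ones for 9 of the 10 genes, against 18.4% of genes. Cd36, Fabp1, Fabp2, Apoa1 and Apoa4, 5 of 10, were called lower in the ileum, where 0.854% of 12643 genes were, and Mttp, Apob and Dgat2 joined them with the replicate block (8 of 10, against 4.19%). Leaving out jejunum 1 raised the number of calls, both of the 10 and over all genes. Fabp1 had 5.10, 74.8, 623 and 973 CPM (-4.34 ± 0.79, adjusted p 0.0322), Fabp2 211, 323, 855 and 1032 CPM (-1.85 ± 0.21, 0.00434) and Apoa4 758, 1009, 2449 and 3130 CPM (-1.69 ± 0.17, 0.00308).

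These levels have to be set beside free RNA. In the 8, 11, 19 and 14 immune-like cells, which should lack the absorptive genes, Fabp1 stood at 16.4, 112, 1267 and 888 CPM and Apoa4 at 2373, 737, 3952 and 2399 CPM. Their median depths were 3288 to 7765 UMIs, beside 4524 to 6062 in stem/progenitor-like cells. Fabp1 in the stem/progenitor-like cells was at or below that in 3 of 4 libraries, and above it in jejunum 2, while the ileal immune-like values rest on 1 and 5 Fabp1 UMIs. Apoa4 and Fabp2 were at or below it in 1 library of each region and above it in the other. The part of free RNA in the regional differences of the stem/progenitor-like cells was not tested. Stem/progenitor-like levels were not in 1 ratio to those of enterocyte-like cells. Dgat1 reached 45.1, 56.0, 49.1 and 44.6% of its enterocyte-like level and Mttp 41.7, 45.6, 24.3 and 22.5%, whereas Apoa4 reached 12.7, 15.7, 14.4 and 16.9% and Fabp1 4.02, 6.63, 9.52 and 15.5%. Cd36 had 8, 5, 47 and 39 UMIs in all in these cells. Immune-like levels were not in 1 ratio to enterocyte-like ones either. There Dgat1 reached 75.02, 30.21, 121.8 and 112% of its enterocyte-like level and Apoa4 39.85, 11.49, 23.23 and 12.94%.

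**Figure D3:**
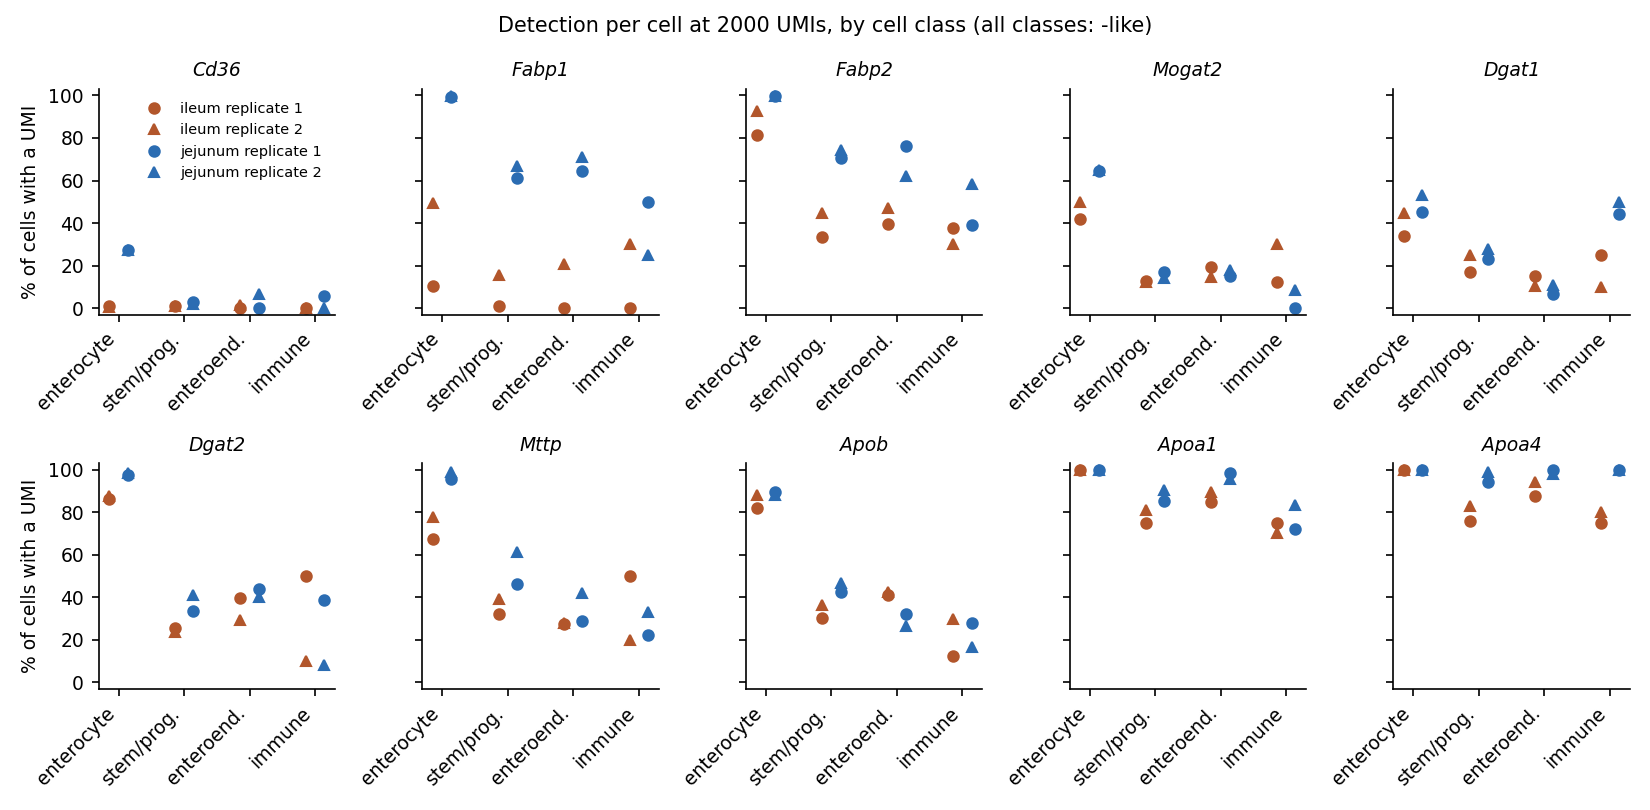
Share of cells with at least 1 UMI of each gene after thinning to 2000 UMIs per cell, in percent, by library and cell class. Apoa1 and Apoa4 are near 100% in every enterocyte-like group, and Cd36 is at 27.5% in both jejunal and under 1% in both ileal ones.

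Whether the regional change itself differed between the classes was tested as an interaction in 1 fit over both, with the library as a block. Cd36 (-3.52 ± 0.55, adjusted p 0.000184), Mttp (-0.96 ± 0.15, 0.000249) and Mogat2 (-0.58 ± 0.16, 0.0242) fell further in enterocyte-like cells, where 3.76% of 19000 genes did. Fabp1 fell less there (0.94 ± 0.22, 0.00895), as did 5.05% of genes, and its stem/progenitor-like values are those set beside the immune-like ones above. Without the library block Cd36 alone was called (adjusted p 0.0307, with 0.0526% of genes called). Without ileum 2 edgeR called 0 of the 10 (6 at an unadjusted p under 0.05), Cd36 having an adjusted p of 0.0529, and without jejunum 2 Cd36 and Mttp were.

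At equal depth the genes could be counted together in single enterocyte-like cells. On average 6.04, 6.90, 8.19 and 8.31 of the 10 were detected per cell, and cells holding 9 or more were 0.896, 7.04, 37.3 and 43.0% of the cells. The few immune-like cells held 3.38, 3.10, 4.0 and 3.83 of the 10 at the same depth, with Apoa1 and Apoa4 in 70.0 to 100% of them, and the part of free RNA in these counts was not tested. The median cell held 32 and 41 UMIs of the 10 genes of its 2000 in the ileum against 100 and 99 in the jejunum. Mttp was detected in 67.6, 77.6, 95.5 and 98.9% of cells and Apob in 82.2, 88.0, 89.6 and 88.3%. Apoa1 and Apoa4 were in at least 99.7% of cells of every library. The variance of Apoa1 over cells was 3.83 to 5.03 times its mean and that of Apoa4 4.80 to 6.48 times, whereas Dgat1, Dgat2, Mogat2 and Mttp, at 1.02 to 1.33 times, were near the spread that counting alone gives.

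The genes varied together from cell to cell in some pairs and little in others. Over 45 pairs the median Pearson correlation was 0.004, 0.020, 0.026 and 0.040 in the 4 libraries, with 6136, 6589, 7149 and 4756 cells, beside 0.001, 0.001, 0.002 and 0.003 over all pairs of 1686 genes. Of the 45, 17, 22, 21 and 23 lay above the value that 10% of all pairs exceed (0.034, 0.031, 0.034 and 0.038). Those 1686 genes hold 9 of the 10, and all their pairs were used, with no matching by level. These correlations are across cells that share a library and are given as a description, and at such counts a weak correlation is no finding. Apoa1 and Apoa4, the coat apolipoproteins, were the closest pair at 0.65, 0.66, 0.70 and 0.73. Fabp1 and Fabp2 followed at 0.22, 0.51, 0.64 and 0.55, and each also rose with Apob, Fabp1 at 0.13, 0.32, 0.29 and 0.28. Apob and Apoa1 were at 0.19 and 0.18 in the ileum against -0.17 and -0.09 in the jejunum, so that the sign differed with region. Mttp and Apoa4 went the other way, -0.12 and -0.10 in the ileum against 0.12 and 0.19 in the jejunum. Dgat1 stayed between -0.08 and 0.04 with every other gene. In cells with a Cd36 UMI the mean Apoa4 count was 1.82, 1.58, 1.23 and 1.21 times that of cells without it and the mean Apoa1 count 1.67, 1.46, 1.18 and 1.21 times, while Fabp1 was 0.750, 0.899, 0.940 and 0.960 times. The ileal ratios rest on 55 and 33 cells with a Cd36 UMI.

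**Figure D4:**
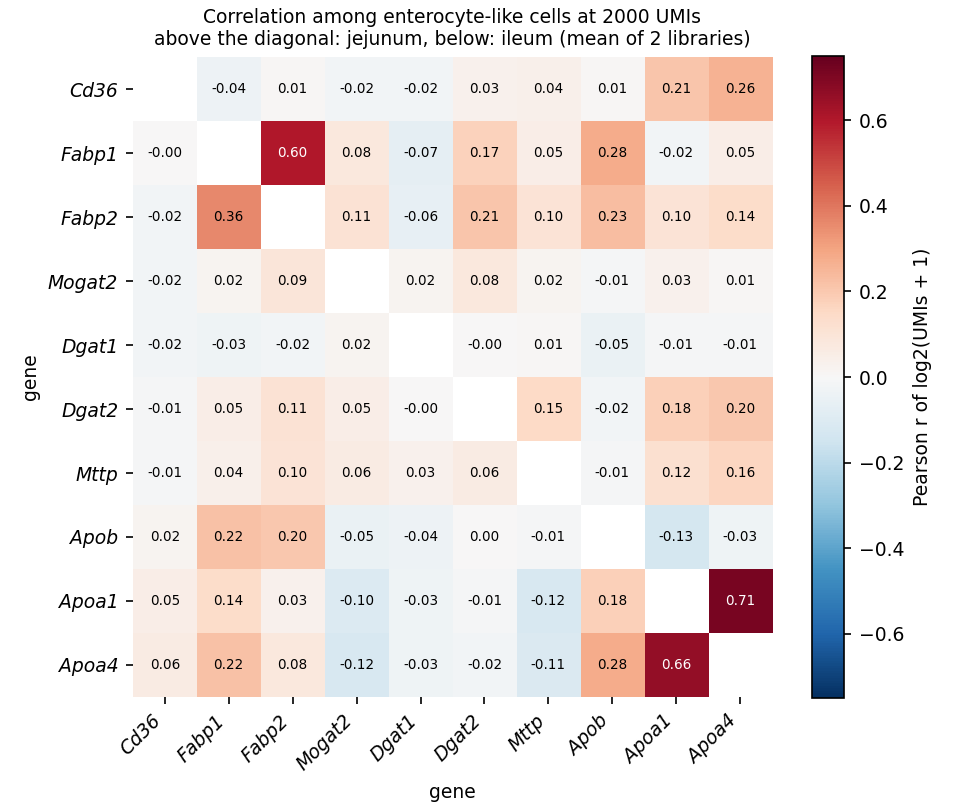
Pearson correlation of log2(thinned UMIs + 1) between the genes across enterocyte-like cells at 2000 UMIs, as the mean of the 2 libraries of a region. The jejunum is above the diagonal and the ileum below it. Apoa1 with Apoa4 is the strongest pair in both regions, followed in the jejunum by Fabp1 with Fabp2.

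Enterocyte-like cells fell into clusters built without the 10 genes, 13 of which had at least 50 cells in each library. In 13 of 13 both jejunal libraries were above both ileal ones for Cd36, Fabp1, Fabp2, Mttp, Apoa1, Apoa4, Dgat2 and Mogat2. The same held in 11 of 13 for Apob and in 4 of 13 for Dgat1. The clusters are parts of the same 4 libraries, so these counts are not repeats of the comparison. Over all enterocyte-like cells 24.5% of 19541 genes lay apart in this way, and the share of all genes within clusters was not counted. Within a library the genes peaked in different clusters. The cluster led by Sprr2a2, Serpinb6b, Trf and Nt5e had the highest Cd36 (18.7, 6.87, 395 and 357 CPM), Apoa1 (12590, 13910, 20020 and 19680 CPM) and Apoa4 (13310, 12900, 28340 and 28020 CPM), and in the ileum the lowest Mttp and Mogat2. The cluster led by Bcl2a1b and F11 had the highest jejunal Fabp1 (11130 and 11240 CPM) and the highest Fabp2 in all 4 libraries (2229, 3867, 9835 and 9048 CPM). In the ileum Fabp1 was highest instead in the cluster led by Apcdd1 and Adora2b, at 378 and 2816 CPM. The cluster led by Celf2 and Rmrp had the lowest Apoa1, Apoa4 and Fabp2 in every library. Its median depth was 2412 UMIs and its median mitochondrial share 11.3%, beside 3138 UMIs and 8.85% in the Sprr2a2 cluster, and the part of depth in these orders was not tested.

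**Figure D5:**
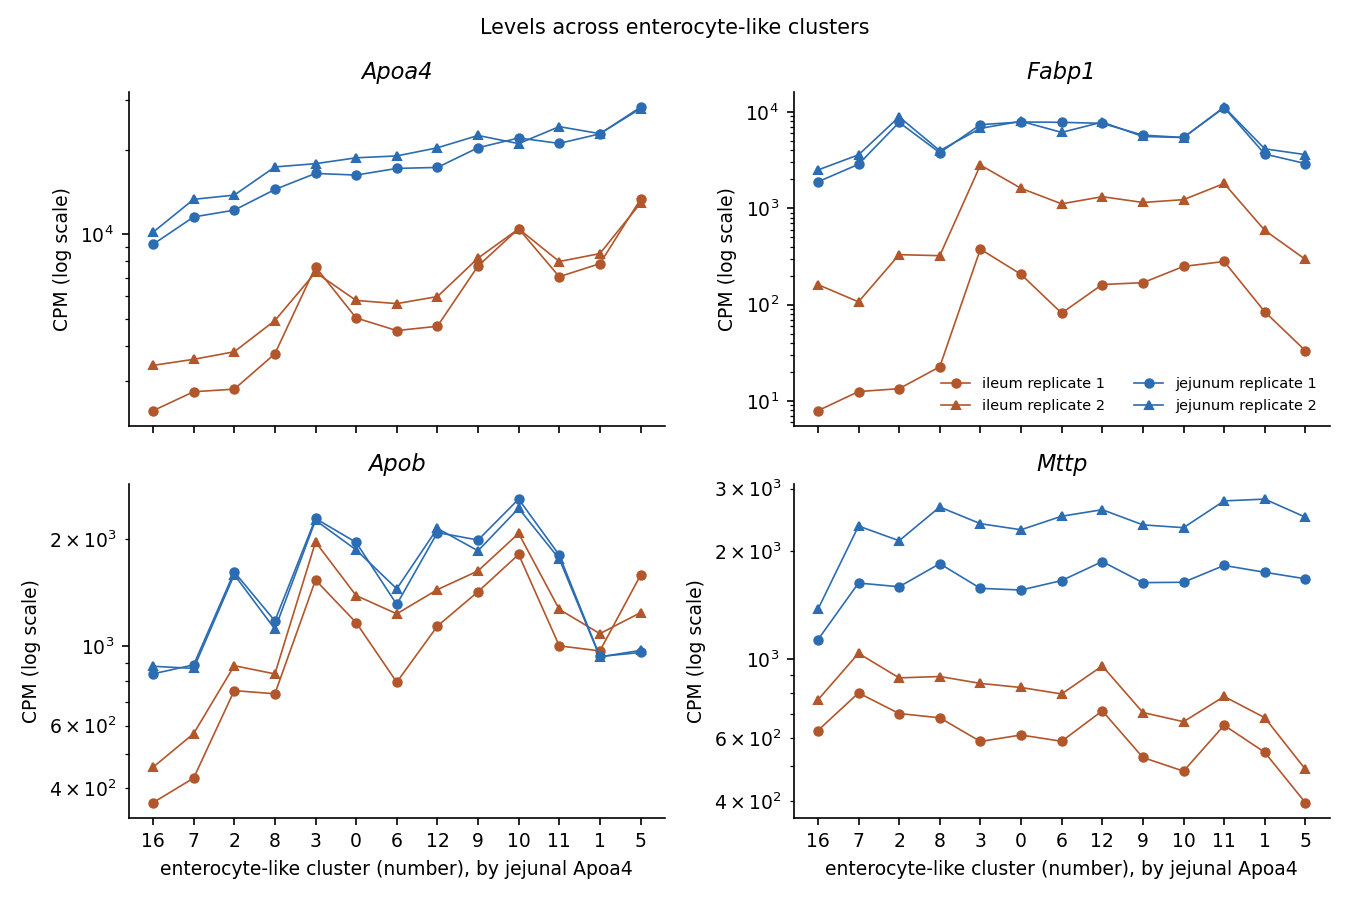
Level of Apoa4, Fabp1, Apob and Mttp in the enterocyte-like clusters, in CPM on a log axis, with a point for each library. Jejunal points lie above ileal ones in all 13 clusters for Apoa4, Fabp1 and Mttp and in 11 of 13 for Apob. Apoa4 is highest in the cluster led by Sprr2a2.

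The genes whose counts followed the summed UMIs of the 10 most closely from cell to cell, 9 of them given here, ranked among 1653 by their lowest correlation over the 4 libraries, were Apoc2 (0.59), Fcgrt (0.55), Gpx3 (0.50), Lgmn (0.40), Ctsl (0.40), Ctsb (0.39), Fuca1 (0.39), Selenop (0.38) and Meltf (0.37). Fcgrt encodes the neonatal Fc receptor and Gpx3 a secreted glutathione peroxidase, while Lgmn, Ctsl, Ctsb and Fuca1 encode lysosomal enzymes. Being alike from cell to cell did not mean the same regional direction. Apoc2 and Fcgrt (1013, 1115, 4301 and 4051 CPM, -2.08 ± 0.16, adjusted p 0.0123) were lower in the ileum, whereas Gpx3 was higher there (4414, 4576, 2624 and 2081 CPM, 0.82 ± 0.17, 0.0476). The other 6 named were not called, with adjusted p-values of 0.074 to 0.547. The sum is carried largely by Apoa1 and Apoa4, whose UMIs make up most of it.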

How the data were processed

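The authors dissociated jejunal and ileal epithelium, made 3′ single-cell libraries with the PIPseq kit and deposited, per library, raw UMI counts per gene and called cell from PIPseeker (sensitivity level 3), not normalized. The genome build named in the submitters' processing notes is GRCm39. Groups came from the tissue region labels. Counts were not corrected for gene length.

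The study's limits on cells were applied (between 1000 and 6000 genes, under 20% mitochondrial UMIs, genes seen in 3 cells or more). They were clustered with Seurat 5.3.0 (CCA integration, resolution 1, 30 components) on 1996 variable genes, the 10 genes left out. Clusters were named from marker lists, with naming thresholds set after the data were seen. With integration, a cluster of 147 cells led by Gzma, Srgn and Ccl5 also met 12 stem/progenitor markers and was left unnamed. Immune-like cells were therefore taken from clustering without integration. Scrublet marked 1 or 2 cells a library, too few to have worked, and nothing was removed on it; leaving out the highest 6% of scores was an alternative.

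UMIs were summed per library and class and tested with edgeR 4.0.16 (TMM, quasi-likelihood, filterByExpr; R 4.3.3), with Benjamini-Hochberg adjustment over all genes tested; DESeq2 1.42.0 was an alternative. CPM scales each sum to 1000000 UMIs. For equal depth each cell was thinned to 2000 UMIs without replacement, with a fixed seed for each library. Shallower cells (48, 276, 693 and 197 enterocyte-like cells) were left out. Regions of the same mouse pair the libraries, and deviations from the region means correlated between them at 0.35 (enterocyte-like) and 0.11 (stem/progenitor-like) over 19541 genes. The scripts were tested on simulated counts.

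The genes and lists were chosen with earlier results of these data known. Named were the 10 genes, up to 3 called genes per role of the pathway list (largest change, 20 CPM or more as the mean of the higher region, same direction in both mice) and the 10 genes most like the summed 10, 1 of which is not reported here. Vamp7 had no row. Proteins and the promoters of Dgat1, Dgat2 and Mogat2 were not used here. Columns of other samples used: 0.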

Additional observations from a re-analysis of the deposited data

Results flagged for a closer look

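The regional change (ileum over jejunum, log2) differed between enterocyte-like and stem/progenitor-like cells for 4 of the 10 genes, by the interaction term of edgeR's quasi-likelihood test with the library as a block (3.76% of all genes fell further in enterocyte-like cells and 5.05% fell less). Without the block Cd36 alone was called, and without ileum 2 edgeR called 0 of the 10, 6 having an unadjusted p under 0.05. The difference of the changes, enterocyte-like minus stem/progenitor-like, was -3.52 for Cd36, 0.94 for Fabp1, -0.96 for Mttp and -0.58 for Mogat2. Cd36 went from 2.92, 2.37, 156 and 171 CPM in enterocyte-like cells to 2.72, 1.70, 14.1 and 10.7 CPM in stem/progenitor-like cells (ileum 1, ileum 2, jejunum 1, jejunum 2), so that the classes were far apart in the jejunum and close in the ileum. Fabp1 went from 127, 1127, 6543 and 6293 to 5.10, 74.8, 623 and 973 CPM, beside 16.4, 112, 1267 and 888 CPM in immune-like cells. Mttp went from 592, 801, 1647 and 2426 to 247, 365, 400 and 546 CPM, and Mogat2 from 284, 366, 549 and 575 to 82.7, 89.0, 102 and 106 CPM. Immune-like cells held Mttp at 311, 67.0, 296 and 346 CPM and Cd36 at 0, 3, 12 and 1 UMIs, and the part of free RNA in these differences was not tested.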

How the results depend on the processing

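The fitted regional change of the 10 genes in enterocyte-like cells was negative under every alternative run. Called genes of the 10 numbered 6 there, against 9 by DESeq2, 8 with the replicate block and 7 when scaled by library totals. Without a count filter the number was 1. There 28644 genes were tested, 1 gene in all was called and 5853 had an unadjusted p under 0.05. Leaving out 1 library gave 1 to 6. All genes called numbered 1463, against 3089 by DESeq2 (1378 shared), 3067 with the replicate block (holding all 1463), 1 without a count filter and 16 to 1542 without 1 library. Of the pathway list 15 were called, against 38 by DESeq2, 33 with the replicate block, 0 without a count filter (42 at an unadjusted p under 0.05) and 0 to 18 without 1 library. In stem/progenitor-like cells 5 of the 10 were called (225 of all genes), and 8 with the replicate block (1133 of all genes). Without ileum 1 the change of Dgat1 there turned to 0.10, not called. The interaction was called for 4, for 1 with no replicate block and for 0 to 3 without 1 library; without ileum 2, where it was 0, 343 of all genes were called and 3539 had an unadjusted p under 0.05. For Fabp1 the interaction call was lost at resolution 0.5 and without integration. Pairing by mouse added Fabp1 and Mogat2 to the calls in enterocyte-like cells and Mttp, Apob and Dgat2 to those in stem/progenitor-like cells. It changed no other call of the 10 in either class. The jejunum minus ileum difference in the share of UMIs from the 10 genes was 2.96 percentage points (2.78 to 3.13 without 1 library), 2.67 over all kept cells and 3.24 with mitochondrial UMIs left out. The mean of the median pair correlations was 0.022, 0.037 at 4000 UMIs per cell and 0.149 over all kept cells, where classes are mixed. Scaling by library totals moved the median of all genes from -0.01 to 0.10 and that of the 10 from -1.43 to -1.31. Of the values for single genes, 370 kept their call, 26 gained and 34 lost it. A fit that leaves 1 library in a region assumes that it varies like the other region. The cause of these shifts was not tested.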
